A study of Mus musculus with 3 samples.

Results

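The genes described here are the replication-dependent core histone genes, which encode the H2A, H2B, H3 and H4 proteins of the nucleosome. They were taken by symbol, as every gene of the deposited table whose name puts it in histone cluster 1, 2, 3 or 4 and in 1 of the 4 core classes. This gave 55 of the 16977 genes of the table: 13 H2A, 17 H2B, 12 H3 and 13 H4 genes. By cluster, 43 lie in cluster 1 on chromosome 13, 8 in cluster 2 on chromosome 3, 3 in cluster 3 on chromosome 11 and 1 in cluster 4 on chromosome 6. All were annotated as protein-coding except Hist3h2bb-ps, a processed pseudogene. The mouse annotation holds 9 further core histone names (among them Hist1h2ap and Hist2h2aa1) that were not analysed here.

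The study infected cultured mouse neural stem cells (NSCs), from C57BL/6J mice at stage E12.5, with lentivirus carrying a short hairpin RNA. One library came from cells with a control hairpin (shControl) and 2 libraries, named by the submitters as biological replicates, came from cells with a hairpin specific for PHF2 (shPHF2 rep1 and rep2). All cells were grown with EGF and FGF, and all carried a lentiviral hairpin, so no uninfected cells were compared. The labels name 1 PHF2 hairpin group and give no second hairpin sequence. PHF2 belongs to a group of chromatin enzymes with a PHD finger and a demethylase domain, known for removing methyl groups from lysine 9 on histone H3. Total RNA was sequenced after removal of ribosomal RNA, without selection for poly(A) tails.

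Replication-dependent histone genes are transcribed mainly while DNA is copied, in S phase, when new nucleosomes are assembled. Their mRNAs are the main animal mRNAs without a poly(A) tail: they end just after a short stem-loop that is bound by SLBP, the stem-loop binding protein, and is cut by a complex shared in part with ordinary polyadenylation. Transcription of the clusters depends on NPAT, and the mRNAs are degraded quickly when DNA synthesis stops. In dividing neural stem cells these transcripts are abundant. The mRNAs for H3.3, a replication-independent variant, are polyadenylated and made throughout the cell cycle.

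The stem-loop was searched for in the annotated transcripts, because it is the element that the members share and that ordinary mRNAs lack. The search asked for a stem of 6 base pairs beginning with GG and a loop of 4 bases. It was found in 38 of the 55 members, 21 to 54 bases after the stop codon with a median of 31 bases. Of the 17 members without it, 13 have fewer than 30 annotated bases after the stop codon, so the place where it would lie is not in the annotation. Of the other 4, Hist1h2bc and Hist2h2be have a longer annotated end that does not match (742 and 2192 bases). Hist2h3b has 37 bases after the stop codon, too few to hold the whole element at the median distance. The pseudogene has no annotated stop codon. Among the longest transcripts of 15812 other genes, 0.468% held the same pattern. These were searched over their whole length, while members were searched only after the stop codon where it is annotated. Only the 55 members were left out of the other genes. The 5 versions below cover all of the 38 members but Hist1h4a, Hist1h3g and Hist2h2ac, which each have a loop of their own, and capitals mark the paired arms of the stem.
H2A, H2B and H3 version 1: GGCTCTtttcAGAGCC
H2B and H3 version 2: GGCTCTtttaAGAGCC
H4 version 1: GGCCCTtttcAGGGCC
H4 version 2: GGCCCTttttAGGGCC
H4 version 3: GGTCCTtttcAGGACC
The first version was carried by 19 members (6 H2A, 8 H2B and 5 H3 genes) and the second by 5 (2 H2B and 3 H3 genes). The 3 H4 versions were carried by 7, 2 and 2 members. No H4 gene carried a version of the other classes, and no H2A, H2B or H3 gene carried an H4 version.

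Promoters were compared because the members moved together. RefSeq promoter sequences (GRCm38.p6) were matched for 49 of the 55 members, with 1 member having a pair of start sites, and the 250 bases upstream of each start were searched on both strands for 3 motifs, none of which contains another. The CCAAT box, searched as CCAAT, was present in 13 of 13 H2A, 15 of 15 H2B and 8 of 10 H3 promoters but in 3 of 12 H4 promoters (Hist1h4a, Hist1h4c and Hist1h4d), against 33.8% of all 32851 promoters. The octamer, searched as ATTTGCAT, was present in 6 H2A and 7 H2B promoters and in 0 H3 and 0 H4 promoters, against 1.60% of all promoters. The TATA box, searched as TATAAA, was present in 24 of the 50 member promoters, against 12.4% of all promoters. H2A and H2B genes that lie head to head share part of their upstream sequence, so their counts are not independent. The promoter of the member with most reads and a RefSeq entry is shown for each class, with that of Hist1h4h, which holds none of the 3 motifs. Capitals mark the motifs on either strand, and sequences run 5′ to 3′ on the gene's strand.
Hist1h2ab, chr13:23750838-23751087, plus strand: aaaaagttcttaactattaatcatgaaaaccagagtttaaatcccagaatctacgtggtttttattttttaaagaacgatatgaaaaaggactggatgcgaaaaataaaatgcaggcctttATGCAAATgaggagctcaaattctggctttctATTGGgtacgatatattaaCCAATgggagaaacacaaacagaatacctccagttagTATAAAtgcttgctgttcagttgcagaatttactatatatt
Hist2h2bb, chr3:96269450-96269699, plus strand: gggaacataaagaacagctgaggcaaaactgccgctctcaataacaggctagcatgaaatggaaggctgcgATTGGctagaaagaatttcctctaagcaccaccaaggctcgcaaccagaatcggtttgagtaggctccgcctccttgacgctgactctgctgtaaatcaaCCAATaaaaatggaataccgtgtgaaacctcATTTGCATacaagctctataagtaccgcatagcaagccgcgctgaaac
Hist1h3e, chr13:23562386-23562635, minus strand: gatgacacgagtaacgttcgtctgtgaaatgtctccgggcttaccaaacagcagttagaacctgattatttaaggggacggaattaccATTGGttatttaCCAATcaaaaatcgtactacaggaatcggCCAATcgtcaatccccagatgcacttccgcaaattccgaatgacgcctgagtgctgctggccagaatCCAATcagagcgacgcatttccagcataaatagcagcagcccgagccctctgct
Hist1h4d, chr13:23581318-23581567, plus strand: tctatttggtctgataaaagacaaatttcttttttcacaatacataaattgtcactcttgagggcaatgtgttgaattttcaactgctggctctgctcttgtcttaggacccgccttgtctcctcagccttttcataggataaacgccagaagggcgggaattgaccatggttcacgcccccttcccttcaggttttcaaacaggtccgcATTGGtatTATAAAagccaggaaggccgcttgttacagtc
Hist1h4h, chr13:23530794-23531043, plus strand: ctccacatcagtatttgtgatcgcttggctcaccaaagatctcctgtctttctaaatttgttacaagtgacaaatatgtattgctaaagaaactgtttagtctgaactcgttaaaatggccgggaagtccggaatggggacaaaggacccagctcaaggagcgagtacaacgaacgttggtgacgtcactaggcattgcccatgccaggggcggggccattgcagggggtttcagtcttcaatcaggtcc
Such matches describe the letters of these windows and do not show that a factor was bound.

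Reads assigned to genes numbered between 26302177 and 37171026 per library. The values used below are normalised read counts, that is reads divided by the size factor of the library. Phf2 itself had normalised counts of 2593 in shControl, 985 in shPHF2 rep1 and 714 in shPHF2 rep2, and was called lower (log2 fold change -1.63 ± 0.24 SE, limma adjusted p = 0.0085). Of the 10 neural stem cell markers searched for, such as Nes and Sox2, all 10 had a mean above 10. Summed neuronal markers stood at 60341 in shControl against 38283 and 39009 in the shPHF2 libraries, and astrocyte markers at 478 against 1263 and 1917. Microglial, endothelial and fibroblast marker sums were at most 234 in any library. The oligodendrocyte lineage sums were 32001, 26566 and 31102, and no marker in the table was at 0 in all 3 libraries. The part of these marker differences in the histone values was not tested.

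Transcripts of all 4 core classes were lower in both shPHF2 libraries than in the control. Of the 55 members, 53 had a mean normalised count of at least 10 and were tested, and 47 of these 53 were called lower and 0 higher by limma at an adjusted p under 0.05. Over all 14148 genes tested, 7.11% were called lower and 7.22% higher. All 53 members lay below the control in both shPHF2 libraries, a pattern that 41.8% of all genes tested showed. The median log2 fold change of the 53 members was -1.55 (range -2.06 to -0.89), against -0.01 over all genes tested. Taken library by library, the members' median difference from the control was -1.83 in rep1 and -1.27 in rep2. The 2 members that were not tested were Hist1h2ba, a testis-type H2B with normalised counts of 0, 1.67 and 1.21 in shControl, rep1 and rep2, and Hist1h4m with 1.99, 0 and 0.

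**Figure D1:**
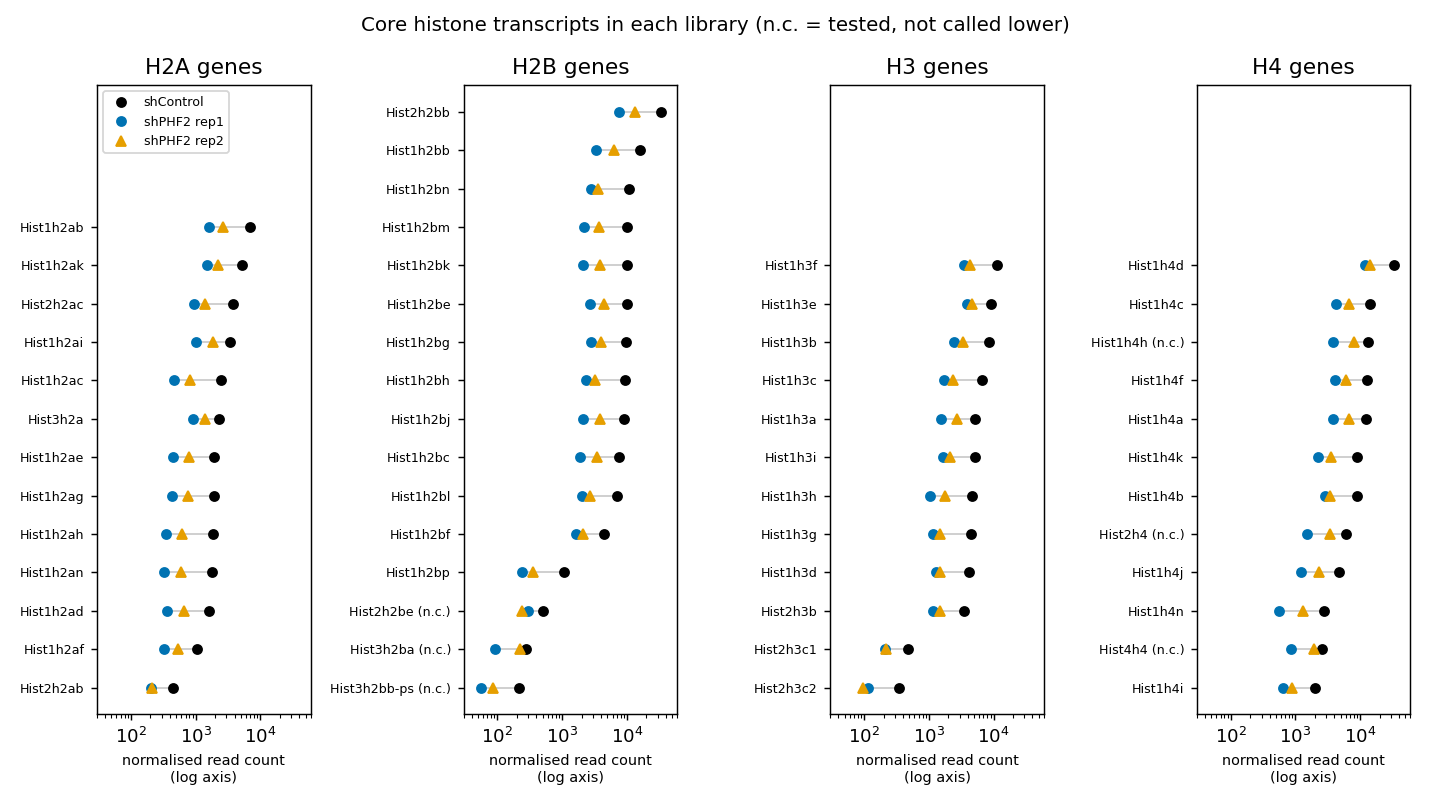
Normalised read count (log axis) of the 53 tested members in each library, in 1 panel per class, with members ordered by their control value; a grey line joins the lowest and highest library. In every row the control point lies to the right of both shPHF2 points, and the shPHF2 rep2 triangle lies between the control and the rep1 point for all but 2 members.

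The test has 1 control library, whose spread is assumed to equal that between the 2 shPHF2 libraries. Each gene's spread was also drawn toward a mean-variance trend over all genes tested. Whether fewer cells in S phase or less histone mRNA per cell lies behind lower values cannot be told apart in bulk RNA. In the authors' deposited table, 44 members were lower and 0 higher at an adjusted p under 0.05 of 53 with such a value, where 7.96% of the table's genes with an adjusted p were lower. All of these 44 were among the 47 called by limma. edgeR's quasi-likelihood test on the recovered reads called 50 members lower, against 8.06% of all genes tested. Setting aside the mean-variance trend, the filter on low values, or the size factors in favour of quantile normalization each left 0 members, and 0 of all genes, called by limma. In the same order, 43, 48 and 49 members had an unadjusted p under 0.05, beside 3300 of 14148, 3893 of 16977 and 3700 of 14148 genes in all. A correction for transcript GC content and length left 33 members called lower, beside 666 of all 13266 genes that it could be made for. Of the members named below, this correction ended the calls of Hist1h2ai, Hist1h2bb, Hist2h2bb, Hist1h3a, Hist1h4c, Hist1h4n and Hist3h2a. Scaling by library totals ended those of Hist1h2ai, Hist1h4n and Hist3h2a. Further cluster 2 genes that lost their call are given with their values. In every one of these settings the members' median stayed between -1.56 and -1.43.

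H2A histones form a dimer with H2B on the outside of the nucleosome. All 13 H2A members were called lower, with a median log2 fold change of -1.70, the lowest of the 4 classes. Hist1h2ab, the H2A member with most reads, had 6937 normalised counts in shControl, 1621 in rep1 and 2666 in rep2 (log2 fold change -1.74 ± 0.28 SE, limma adjusted p = 0.0104). Hist1h2ak had 5127, 1480 and 2223 in the same order (-1.50 ± 0.25, limma adjusted p = 0.0118). Hist1h2ai had 3406, 1000 and 1858 (-1.32 ± 0.33, limma adjusted p = 0.0358). In each of these the control was the highest library and rep1 the lowest. The lowest log2 fold change of any member was that of Hist1h2an, with 1820 in shControl, 323 in rep1 and 590 in rep2 (-2.06 ± 0.35, limma adjusted p = 0.0119). At the other end of the class stood Hist3h2a of cluster 3, with 2315, 929 and 1412 (-1.01 ± 0.26, limma adjusted p = 0.0403). The remaining members of the class kept the same order of libraries, and the fold changes of the cluster 1 genes ranged from -2.06 to -1.32.

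H2B, the partner of H2A, gave the most reads of the 4 classes in shControl, as a count of reads and not per length, while H4 gave more in both shPHF2 libraries. Of the 16 members tested, 13 were called lower, with a class median of -1.65. Hist2h2bb of cluster 2 supplied 24.0% of the H2B reads and had 33716 normalised counts in shControl, 7663 in rep1 and 13541 in rep2 (-1.73 ± 0.32, limma adjusted p = 0.0154). Its annotated transcript is coding sequence only, and 0% of its 50-base stretches are unique among annotated transcripts. Its reads may therefore belong in part to other genes, whose class was not examined. Hist1h2bb had 15663, 3310 and 6378 (-1.77 ± 0.34, limma adjusted p = 0.017). It was not called in the authors' deposited table, at an adjusted p of 0.136. Hist1h2be had 10035, 2714 and 4364 (-1.54 ± 0.27, limma adjusted p = 0.0133). The lowest fold change of the class was that of Hist1h2bp, with 1054, 236 and 351 (-1.87 ± 0.31, limma adjusted p = 0.0114). In all of these the control was the highest library, as in 41.8% of all genes tested.

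The 3 H2B members that were tested and not called have low counts. Hist2h2be, whose annotated transcript runs 2192 bases past the stop codon, had 497 in shControl, 297 in rep1 and 241 in rep2 (-0.89 ± 0.29, limma adjusted p = 0.0811). Hist3h2ba had 272, 92.5 and 227 (-0.90 ± 0.52, limma adjusted p = 0.281), and its rep2 value was 83.3% of the control. The pseudogene Hist3h2bb-ps had 215, 55 and 84.4 (-1.64 ± 0.46, limma adjusted p = 0.0516). Its fold change was close to the class median, and it had the fewest reads of the tested members. Hist2h2be differs from the rest of the class in that its lowest value was in rep2.

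H3, which carries the lysine 9 that PHF2-family enzymes act on, pairs with H4 in the core of the nucleosome. All 12 H3 members were called lower, with a class median of -1.55. Hist1h3f, the member with most reads, had 11235 in shControl, 3507 in rep1 and 4338 in rep2 (-1.53 ± 0.20, limma adjusted p = 0.00651). Hist1h3e had 9223, 3892 and 4680 (-1.11 ± 0.19, limma adjusted p = 0.0125), the smallest fall of the class. Hist1h3b had 8582, 2414 and 3357 (-1.59 ± 0.22, limma adjusted p = 0.0075). For these H3 genes the shPHF2 libraries lay close to each other and far from the control. The largest fall was that of Hist1h3h, with 4577, 1040 and 1782 (-1.75 ± 0.30, limma adjusted p = 0.0122).

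H4 is the most conserved core histone. Of the 12 H4 members tested, 9 were called lower, with a class median of -1.40, the highest of the 4 classes. Hist1h4d supplied 27.3% of the H4 reads, with 33814 in shControl, 11747 in rep1 and 14148 in rep2 (-1.39 ± 0.22, limma adjusted p = 0.00944). Hist1h4c had 14380, 4255 and 6797 (-1.42 ± 0.27, limma adjusted p = 0.017). Hist1h4k had the largest fall of the class, with 9063, 2233 and 3500 (-1.70 ± 0.26, limma adjusted p = 0.00926). These called members keep the order control, rep2, rep1. The 3 members not called did not have low counts, and their shPHF2 libraries lay far apart. Hist1h4n had a wider gap between these libraries (1.24 on the log2 scale) and was called lower, with a log2 fold change of -1.69. Hist1h4h had 13441, 3845 and 7945 (-1.28 ± 0.37, limma adjusted p = 0.0548). Hist2h4 had 5980, 1508 and 3398 (-1.40 ± 0.40, limma adjusted p = 0.0539). Hist4h4, the only gene of cluster 4, had 2570, 865 and 1944 (-0.99 ± 0.40, limma adjusted p = 0.14), which in rep2 is 75.6% of the control.

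Clusters were compared next, as the members of a cluster share a stretch of chromosome. In cluster 1, 40 of 41 tested members were called lower, with a median of -1.58, and in cluster 2, 6 of 8 with a median of -1.40. Cluster 3 had 1 of 3 called, with a median of -1.01. In cluster 2, Hist2h2ac had 3834, 955 and 1421 (-1.72 ± 0.25, limma adjusted p = 0.0085) and Hist2h3b had 3463, 1163 and 1493 (-1.39 ± 0.21, limma adjusted p = 0.00886). Of the 4 members of the cluster with control values under 500, Hist2h2be was not called and the other 3 were called lower. Hist2h2ab had 442, 202 and 211 (-1.09 ± 0.30, limma adjusted p = 0.0481) and was no longer called with a pseudocount of 5, library totals, DESeq2 or the GC and length correction, nor in the authors' deposited table (adjusted p of 0.0641). Hist2h3c1 had 471, 214 and 215 (-1.13 ± 0.30, limma adjusted p = 0.0411) and was not called with library totals or the GC and length correction. Hist2h3c2 had 341, 115 and 95.2 (-1.69 ± 0.37, limma adjusted p = 0.0247). The shPHF2 values of these 3 genes lay within a narrow range of each other. Along chromosome 13, cluster 1 falls into 3 stretches (mm10): 13 members between 21715763 and 21832196, 5 between 22035164 and 22043676 and 25 between 23531050 and 23934156. Their medians were -1.69, -1.70 and -1.55, and in the same order 12 of 12, 5 of 5 and 23 of 24 tested members were called lower. The one not called was Hist1h4h. The difference between clusters was not tested.

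Position was examined more closely in H2A and H2B genes that lie head to head and are read outward from a shared upstream region. There were 10 such pairs, with 172 to 301 bases between their annotated starts. Within a pair the fold changes differed by a median of 0.26 on the log2 scale, and over all 208 combinations of a tested H2A with a tested H2B gene by 0.26. Pairs were thus no closer than H2A and H2B genes in general. The closest pair was Hist1h2ag and Hist1h2bj, which differed by 0.04. The widest was Hist2h2ac and Hist2h2be, which differed by 0.83. Members sharing the octamer in their H2B promoters (6 tested) had a median of -1.75 and those without it (7 tested) a median of -1.66.

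**Figure D2:**
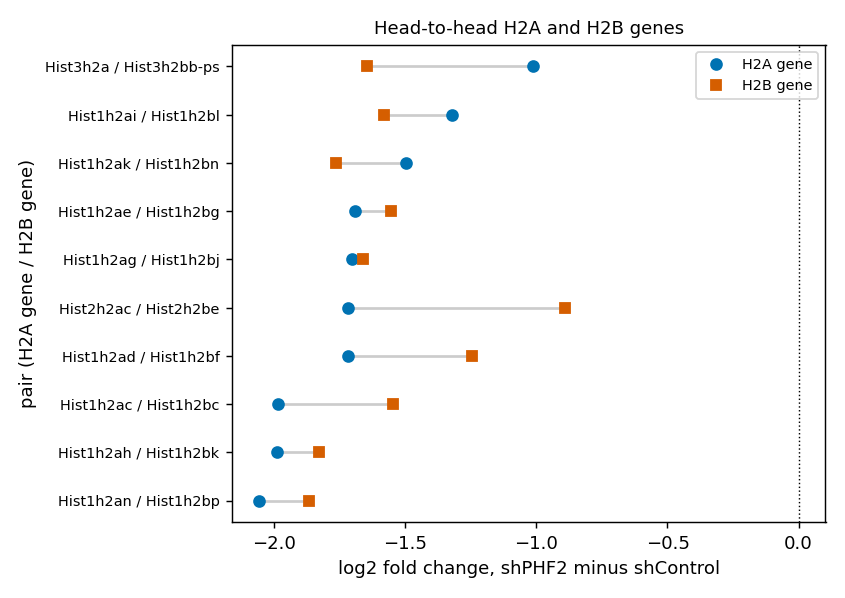
Log2 fold change (shPHF2 minus shControl) of the H2A gene (circle) and the H2B gene (square) of each of the 10 head-to-head pairs, joined by a grey line. All points lie below 0, and the widest line, for Hist2h2ac and Hist2h2be, spans 0.83.

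Class sums do not change with how reads are divided among the members of a class. They do not hold reads given to the 9 core histone genes not analysed here or set aside as low in alignment quality. H2A sums were 34704 normalised counts in shControl, 8903 in rep1 and 14586 in rep2, which is 25.7% and 42.0% of the control. H2B sums were 139196, 34099 and 55588, or 24.5% and 39.9% of the control. H3 sums were 63343, 19726 and 26198, or 31.1% and 41.4%. H4 sums were 122936, 37577 and 58557, or 30.6% and 47.6%. Every class was lower in both shPHF2 libraries, by more than the gap between those libraries. All 55 members together took 1.10% of the reads in genes in shControl, 0.324% in rep1 and 0.489% in rep2. As a mean of the 2 shPHF2 libraries the total was 35.4% ± 10.7 of the control (SD, n = 2).

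**Figure D3:**
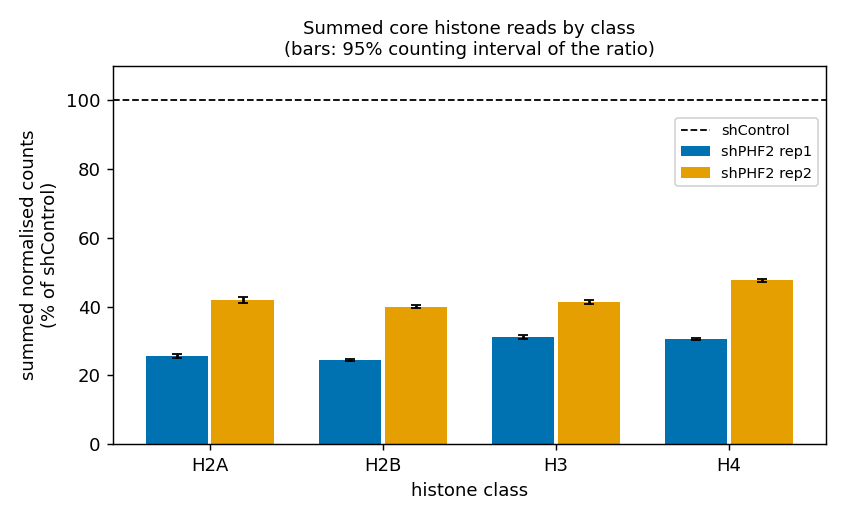
Summed normalised counts of each class in the shPHF2 libraries as a percent of shControl (dashed line at 100%); error bars are 95% counting intervals of the ratio. Rep1 bars stand between 24.5% and 31.1% and rep2 bars between 39.9% and 47.6%.

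The shPHF2 libraries were then set against each other. This compares 1 library with 1 library, so it has no test, and its intervals cover counting error only. Of the 53 tested members, 51 were higher in rep2 than in rep1, beside 7209 of all 14148 genes tested. At least 1.5-fold more in rep2 was found for 31 of 53 members, against 7.8% of all genes tested, and 0 members were 1.5-fold lower. The median difference between the replicates was 0.65 on the log2 scale, against 0.01 over all genes tested. Phf2 went the other way, with 714 in rep2 against 985 in rep1. Rep2 also stood apart in the share of reads set aside for low alignment quality, 20.5% against 15.9% in rep1 and 17.0% in shControl, and in the share outside annotated genes, 38.7% against 44.0% and 42.7%. The part of these shares in the replicate difference was not tested.

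The classes did not share this difference equally. Rep2 to rep1 ratios of the summed reads were 1.64 for H2A (95% exact interval 1.60 to 1.68), 1.63 for H2B (1.61 to 1.65), 1.56 for H4 (1.54 to 1.58) and 1.33 for H3 (1.30 to 1.35). The H3 interval did not overlap that of any other class, within counting error. By gene, 11 of 13 H2A, 9 of 16 H2B and 9 of 12 H4 members were at least 1.5-fold higher in rep2, and 2 of 12 H3 members were, Hist1h3a and Hist1h3h. Median differences were 0.81 for H2A, 0.65 for H2B, 0.75 for H4 and 0.36 for H3. After the correction for GC content and length, these medians were 0.58, 0.58, 0.67 and 0.21, and H3 was again the lowest. In rep1 alone the H3 median lay at -1.68 from the control and the H2A median at -2.10, while in rep2 they lay at -1.36 and -1.29. The class order thus differed between the shPHF2 libraries.

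The widest gaps between replicates were those of Hist3h2ba, Hist1h4n and Hist2h4, at 1.28, 1.24 and 1.17 on the log2 scale. Hist1h4n had 2787 in shControl, 560 in rep1 and 1325 in rep2 (-1.69 ± 0.43, limma adjusted p = 0.0372). It was not called in the authors' deposited table, at an adjusted p of 0.325. At the other end stood Hist2h2be at -0.30, Hist2h3c2 at -0.27 and Hist2h3c1 at 0.00, all of cluster 2. Only Hist2h2be and Hist2h3c2 were lower in rep2 than in rep1.

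**Figure D4:**
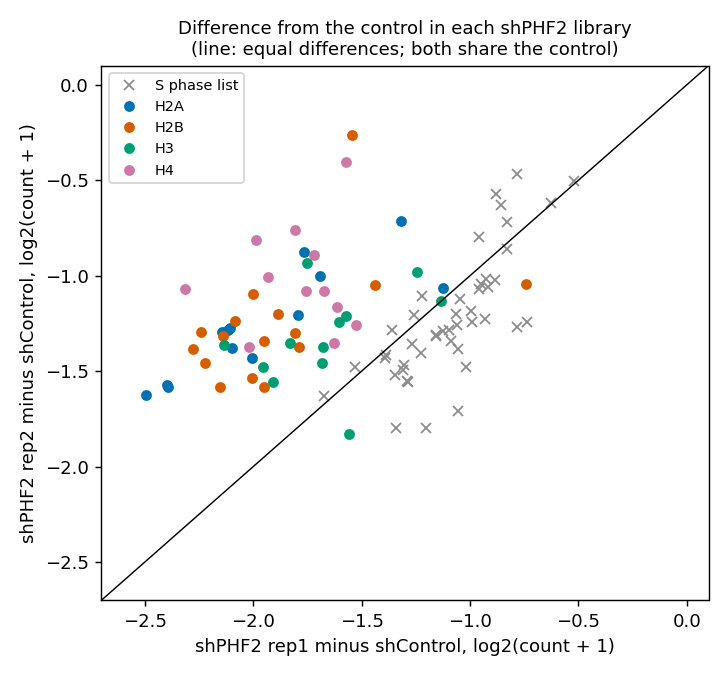
Difference from shControl in shPHF2 rep1 (x axis) and rep2 (y axis), on the log2(count + 1) scale, for the 53 tested members by class and for the 45 genes of the S phase list (crosses); both axes share the control. Members other than Hist2h2be and Hist2h3c2 lie above the line of equal differences, with medians of -1.83 and -1.27, and S phase genes have medians of -1.06 and -1.27.

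Genes of the S phase list, which encode the DNA replication machinery, were examined because core histone transcription is tied to DNA synthesis. Of 45 genes, 40 were called lower and 0 higher, with a median log2 fold change of -1.19. The 5 not called were Gins4, Rpa3, Rfc3, Orc1 and E2f1, with log2 fold changes from -1.03 to -0.51. Rrm1, a subunit of ribonucleotide reductase, had 15698 in shControl, 7534 in rep1 and 6572 in rep2 (-1.16 ± 0.19, limma adjusted p = 0.0112). Dnmt1, the maintenance DNA methyltransferase, had 15492, 7465 and 5937 (-1.22 ± 0.21, limma adjusted p = 0.012). Ccna2, cyclin A2, had 13943, 6885 and 5011 (-1.25 ± 0.23, limma adjusted p = 0.0145). In these 3 genes rep2 was the lowest library. Over the list, 12 of 45 genes were higher in rep2 than in rep1. This compares with 51 of 53 core histone members and 7209 of all 14148 genes tested. In rep1 the median difference from the control was -1.06 for this list and -1.83 for the members. In rep2 it was -1.27 for both. The rep2 minus rep1 median was -0.14 for this list and 0.65 for the members. The 2 groups thus shifted in opposite directions, with medians apart in rep1 and level in rep2. With 1 library on each side this has no test.

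Linker H1 genes encode the histone that binds DNA between nucleosomes, and several of them lie in cluster 1 and are replication-dependent too. Of the 8 genes, 7 were tested and 5 were called lower, namely Hist1h1a to Hist1h1e. Hist1h1e had 32303 in shControl, 12462 in rep1 and 15493 in rep2 (-1.22 ± 0.22, limma adjusted p = 0.0153). Hist1h1d had 33751, 10004 and 12452 (-1.60 ± 0.22, limma adjusted p = 0.00688). Hist1h1a had 29374, 9783 and 12974 (-1.38 ± 0.23, limma adjusted p = 0.0119). These 3 genes were higher in rep2 than in rep1, and the list's median difference was 0.31, near that of H3.

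Replication-independent variants can replace core histones outside S phase. Whether each gene listed here is made evenly over the cell cycle was not tested. Of 9 genes, 4 were called lower and 0 higher, with a median of -0.46. H3f3b, which encodes H3.3, had 17545 in shControl, 16458 in rep1 and 16302 in rep2 (-0.10 ± 0.20, limma adjusted p = 0.775). H2afy, which encodes macroH2A, had 5588, 3935 and 4215 (-0.46 ± 0.17, limma adjusted p = 0.117). H2afx, whose product marks DNA breaks once phosphorylated, had 5924, 2777 and 2977 (-1.04 ± 0.17, limma adjusted p = 0.0118). The 3 libraries of H3f3b lay close together, while H2afx had its control library well above the others. The other genes called lower were H2afz (-0.96), H2afy2 (-1.02) and Cenpa (-0.84). The list's rep2 minus rep1 median was -0.01.

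Factors that make histone mRNA were measured in 15 genes, of which 4 were called lower and 0 higher, with a median of -0.49. Slbp, which encodes the stem-loop binding protein, had 3308 in shControl, 2050 in rep1 and 2162 in rep2 (-0.65 ± 0.18, limma adjusted p = 0.0453). Npat, the coactivator of the histone clusters, had 3921, 2796 and 2458 (-0.58 ± 0.18, limma adjusted p = 0.0702). The other genes called lower were Casp8ap2 (-0.63), Lsm11 (-0.91) and Eri1 (-0.99), the last encoding an exonuclease that trims histone mRNA ends. The genes of the list with most reads included cleavage factors that polyadenylated mRNAs use as well. Cstf2 had 7360, 4719 and 5025 (-0.60 ± 0.17, limma adjusted p = 0.0588). Cpsf2 had 6278, 4346 and 4584 (-0.49 ± 0.17, limma adjusted p = 0.0958). Zc3h11a had 5157, 4546 and 4521 (-0.19 ± 0.17, limma adjusted p = 0.504). Both shPHF2 libraries were similar for each of these, and the list's rep2 minus rep1 median was -0.01.

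**Figure D5:**
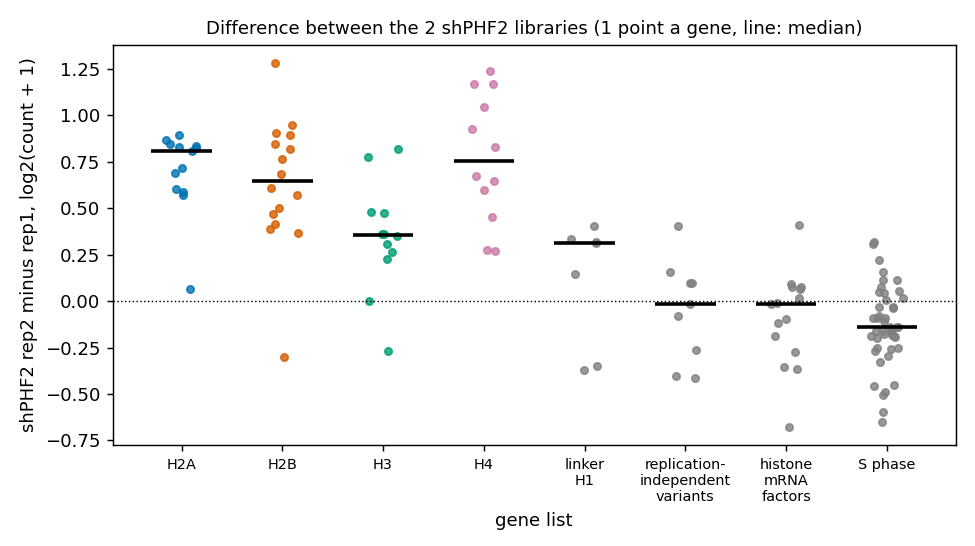
Difference between the shPHF2 libraries, rep2 minus rep1, on the log2(count + 1) scale, with 1 point per tested gene and a black line at each list's median. Medians stand at 0.81, 0.65, 0.36 and 0.75 for H2A, H2B, H3 and H4, at 0.31 for linker H1, at -0.01 for the variants and the histone mRNA factors, and at -0.14 for the S phase list.

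Near-identical sequence and annotation both bear on single members. The share of a member's 50-base stretches that are unique among annotated transcripts ran from 0% to 100%, with a median of 45.9%. It was 0% for Hist2h2bb, Hist2h3b and Hist2h3c1. The handling of reads matching several genes was not stated in any label. Members under 25% (14 tested) had a median log2 fold change of -1.64, those from 25% to 75% (28 tested) of -1.62 and those of 75% or more (11 tested) of -1.42. The replicate difference was 0.73, 0.60 and 0.69 in the same order. The part of shared sequence in that difference was not tested. Some annotated transcripts end shortly after the stem-loop and others run on: 19 extend more than 100 bases past it, all tested, with a median of -1.42. The 18 tested members that end within 100 bases had a median of -1.71, and their replicate difference was 0.74 against 0.60 for the longer ones. Across the 53 members, the log2 fold change had a Pearson correlation of 0.34 with transcript length, -0.28 with GC content and 0.25 with the unique share. These points come from the same 3 libraries, and the correlations are given as description only.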

How the data were processed

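RNA from 1 shControl and 2 shPHF2 cultures was compared. The submitters' processing notes name HISAT2, HTSeq, DESeq2 and mm10. Strand setting, annotation, multi-mapping reads and read length: not given in the sources used here. The deposited values are a normalised signal, reads divided by a size factor (1.00, 1.20 and 0.829), and dividing by the smallest step gave whole reads for 100% of values within 0.001. The authors also deposited log2 fold changes and adjusted p-values. Rows that name no gene held 61.4% to 61.5% of the reads and were left out.

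limma 3.58.1 (R 4.3.3) was fitted with a mean-variance trend to log2(value + 1) for genes with a mean of at least 10, with Benjamini-Hochberg adjustment over 14148 genes and 1 residual degree of freedom (prior 6.94). Fold changes on this scale understate those of low genes. edgeR 4.0.16 and DESeq2 1.42.0 were run on the recovered reads. The script was tested on simulated data. Ratios have 95% exact counting intervals; PCR reads are not independent molecules, so they cover counting error only. GENCODE M21 and RefSeq (GRCm38.p6) gave positions and sequences.

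The members and lists were chosen with earlier results of these data known. Values are printed for the 3 members with most reads and the largest and smallest fold change in each class, members not called, clusters 2 to 4, the 3 highest and 3 lowest replicate ratios, and the 3 genes with most reads of each list with Slbp and Npat. Those named for a pair, or for the authors' call, were added after their values were seen. The shPHF2 libraries are called biological replicates with no more said. The deposited name of the rep2 library has a prefix of a different form from those of shControl and rep1. What this prefix stands for is not stated, and its part in the replicate difference was not tested. The limma p-values rest on the spread between these libraries, moderated by a mean-variance trend over all genes tested. That trend carried most of the weight (prior 6.94 against 1 residual degree of freedom).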

Additional observations from a re-analysis of the deposited data

How the results depend on the processing

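Beside the 47 members called lower as reported, limma called 47 with a pseudocount of 0.5, 46 with 5, 49 with a minimum mean of 50, 42 with library totals and 50 with TMM factors; edgeR called 50, DESeq2 44 and limma after GC and length correction 33. Over all genes, limma called 1006 of 14148 lower as reported, and 1005 and 994 with these pseudocounts. It called 1085 of 12292 with a minimum mean of 50, 685 of 14148 with library totals and 1146 with TMM factors. edgeR called 1140 of 14148, DESeq2 1002 of 16977 and limma after GC and length correction 666 of 13266. The members gained were Hist1h4h and Hist2h4, and with TMM factors and edgeR also Hist3h2bb-ps. By limma, 0 members were called without the filter on low values, 0 after quantile normalization and 0 without the trend. There, 48, 49 and 43 members had an unadjusted limma p under 0.05. In these 3 settings 0 of all genes were called, and 3893, 3700 and 3300 had an unadjusted p under 0.05. The cause was not tested. Every tested member kept its direction in each of these fits. The members' median was -1.83 without shPHF2 replicate 2 and -1.27 without replicate 1, with no test in either case. Added after seeing the data, the count without the pseudogene was 47, and class sums with 1 shPHF2 library ranged from 25.7% to 42.0% of the control for H2A, 24.5% to 39.9% for H2B, 31.1% to 41.4% for H3 and 30.6% to 47.6% for H4. With library totals the rep2 to rep1 ratio was 1.59 for H2B, 1.30 for H3 and 1.52 for H4. Without the member with most reads it was 1.59 for H2B and 1.72 for H4. No paired analysis was possible because the single control carries no replicate number. The tests rest on 1 control and 2 shPHF2 libraries.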
